A study of Homo sapiens with 36 samples.

Results

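Ribosome biogenesis genes were followed in JEKO, MINO and UPN-1, 3 established lines of human mantle cell lymphoma, as 51 genes chosen by symbol and matched to Ensembl gene IDs through GENCODE. All 51 were found among the 58302 gene IDs of the deposited count tables, and all 51 were abundant enough to be tested in each line. Cells had been given either DMSO, the solvent control, or GS716054, which the labels call a KDM5 inhibitor, and RNA was taken 24 h or 72 h later. KDM5 enzymes remove methyl groups from histone H3. No measured KDM5 transcript passed the test under the inhibitor in any line without a block for the replicate number, and with a block within each time 1 was called higher at 24 h in MINO, as was 1 at 72 h in UPN-1. The 36 libraries formed 12 groups of 3 biological replicates. Apart from line, treatment and time, all groups shared 1 culture medium (RPMI-1640 with serum), and the labels gave no dose. Each line stands for 1 tumour, so the replicates are samples of the same cells, and p-values measure the spread between those samples. For each line, GS716054 was compared with DMSO gene by gene at both times, and the results were set against the MYC level of each group.

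Libraries held 8784815 to 14970876 reads in genes. The B-cell markers CD79A, CD79B, MS4A1, PAX5 and CD22 and the mantle cell lymphoma markers CCND1 and SOX11 were present in every library, while CD5 was low in UPN-1 (0.834 to 6.04 CPM, counts scaled to a fixed library size with TMM factors). Of 14 markers of T, NK, myeloid and erythroid cells and fibroblasts, none passed 6.22 CPM in any library (LYZ in MINO). CD3E (0.643 to 4.13 CPM) and ITGAM (0.538 to 3.62) had reads in every MINO library, CD3G (0.723 to 5.71) in every JEKO library, and COL1A1 (up to 4 CPM) in every library of both, while CD2, HBB and COL3A1 had none in any library. Several libraries stood apart. Ribosomal protein genes took 5.04% of the gene reads in JEKO GS716054 24 h replicate 2 and 16.2% in MINO DMSO 72 h replicate 2, each the extreme of its line. The 51 genes summed to 4513 CPM in MINO GS716054 72 h replicate 2, the lowest of all libraries. Without that JEKO library the median of the 51 genes in JEKO at 24 h was -0.02 in place of -0.05, with no call either way. The MINO values at 72 h that move without replicate 2 are given beside them.

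Ribosomes are built in the nucleolus. RNA polymerase I transcribes the long precursor of ribosomal RNA, small nucleolar ribonucleoproteins (snoRNPs) methylate and pseudouridylate it, and ordered assembly factors fold it, cut it and load it with ribosomal proteins to give the small (40S) and large (60S) subunits. Many of these genes are textbook targets of MYC, the transcription factor that couples growth signals to cell mass, and a high rate of ribosome production is a known trait of fast-growing B-cell lymphomas. The 51 genes were grouped by role into RNA polymerase I transcription (5 genes), box C/D snoRNP (3), box H/ACA snoRNP (4), 40S assembly (18), 60S assembly (14) and abundant nucleolar proteins with several roles (7).

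Levels differed widely among the genes. Per kilobase of exon, NHP2, NPM1 and NCL had the highest DMSO levels at 24 h in all 3 lines: 216.5, 147.7 and 134.1 CPM per kb in JEKO, 159.6, 185.7 and 142.5 in MINO, and 183.4, 179.5 and 248.7 in UPN-1. PPAN was the lowest in each line, at 1.09, 0.962 and 1.38 CPM per kb. Some of these counts are uncertain in absolute terms. PPAN shares 49.2% of its exon bases with the read-through gene PPAN-P2RY11, NOP2 shares 54.4% with another gene on its strand, NPM1 has 49 named pseudogenes, and 28% of the NHP2 exon bases lie opposite RMND5B. Genes called in MINO at 24 h overlap others too. Exon bases lie opposite other genes for 26.9% of TSR1 (led by SRR) and 23.1% of HEATR1 (led by LGALS8). In WDR74 12.2% do, and 10.1% are shared on its own strand. The use of strand in counting was not given in the sources used here, so reads of such overlapping genes cannot be told apart.

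The promoters of these genes held 1 short sequence more often than those of all genes. The 6-base E-box CACGTG, the sequence MYC and MAX are known to bind, reads the same on both strands and overlaps no other motif searched here. In RefSeq promoter windows of build GRCh38.p14, from 250 bases before to 50 bases after a transcription start, 44 of the 51 genes were matched. Of these 44, 22 (50%) held CACGTG in at least 1 window, against 8.77% of 27305 genes. The related E-box CAGCTG, counted the same way, was in 20.5% of the matched genes and in 21.1% of all genes. With windows cut to the bases before the start, CACGTG was found in 18.2% of the matched genes and 7.73% of all. CACGTG holds a CG pair and CAGCTG does not, so the CAGCTG count does not control for base content. Many of the 51 genes are textbook MYC targets, so the choice by symbol may not be independent of this box. A match describes the letters of the window and does not show that a factor was bound. The GENCODE gene of NAT10 begins inside its box, at 34105617. The 100 bases directly before the RefSeq start are shown for NAT10 (chr11:34105529-34105628, plus strand) and UTP20 (chr12:101280005-101280104, plus strand), with CACGTG in capitals, because the box lies there close to the RefSeq start:
NAT10: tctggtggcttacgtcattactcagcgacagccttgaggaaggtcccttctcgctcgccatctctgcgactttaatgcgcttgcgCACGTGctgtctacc
UTP20: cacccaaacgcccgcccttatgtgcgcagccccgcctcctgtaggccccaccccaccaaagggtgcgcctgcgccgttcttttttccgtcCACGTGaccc

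The 30 bases around the box are shown for 5 other genes. DDX21, an RNA helicase of the nucleolus, had log2 fold changes of -0.64 and -0.44 in treated MINO cells at 24 h and 72 h (adjusted p 0.148 and 0.256, or 0.00354 and 0.0136 with the block within each time), and the values of the others are given by role. In LYAR (chr4:4290068-4290097, minus strand) and DDX21 (chr10:68956604-68956633, plus strand) it lies before a RefSeq start. In both it also lies inside the GENCODE gene, which begins further upstream, at 4290154 and 68956135. The GENCODE gene of GNL3 also begins further upstream of its box, at 52681156. In FBL (chr19:39846356-39846385, minus strand), GNL3 (chr3:52686026-52686055, plus strand) and MYBBP1A (chr17:4555340-4555369, minus strand) the box lies just after a RefSeq start, inside the transcribed sequence:
LYAR: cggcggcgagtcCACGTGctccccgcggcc
DDX21: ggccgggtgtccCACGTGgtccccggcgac
FBL: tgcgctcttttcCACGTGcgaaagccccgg
GNL3: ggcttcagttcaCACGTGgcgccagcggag
MYBBP1A: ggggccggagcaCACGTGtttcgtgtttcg
Matched genes with and without the box both had a negative median in treated MINO cells. The median log2 fold change of GS716054 against DMSO in MINO at 24 h was -0.60 over the 22 genes with CACGTG and -0.51 over the 22 genes without it, and the ranges overlapped (-1.09 to -0.24 and -0.82 to -0.23).

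GS716054 was followed by lower ribosome biogenesis transcripts in MINO and not detectably in JEKO or UPN-1. In MINO at 24 h, all 51 genes had a negative log2 fold change, with a median of -0.59 against 0.01 over all 15028 genes tested, and the values ran from -1.09 (MYBBP1A) to -0.23 (RRN3). With edgeR's quasi-likelihood test and a Benjamini-Hochberg adjusted p under 0.05, 8 of the 51 fell and none rose, against 0.952% of all genes called lower. The 8 were NCL, HEATR1, POLR1B, MYBBP1A, WDR74, RRP1B, GNL3 and TSR1, named here after their values were seen. At an unadjusted p under 0.05, 37 of the 51 passed, a count given here without the share of all genes. In 48 of the 51, every treated library lay below every DMSO library, a pattern that 15.2% of all genes showed. RNA was taken from whole cultures, so a lower level in each cell and a larger share of cells with a low level cannot be told apart, and CPM gives a share of the reads, not an amount per cell.

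The number of calls at 24 h depended on the model. Same-numbered MINO libraries deviated together within a time, but only weakly at 24 h (r of 0.102, 0.207 and 0.121). The pairing was read from these data and the shared numbers, and the block within each time was added after seeing the data. With the replicate number as a block, 24 of the 51 were called lower (2.88% of all genes), and with the number within each time as the block 41 were (7.36% of all genes). Both sets contained all 8 genes. The genes outside the larger set were POLR1C, RRN3, UBTF, NOP10, UTP15, LTV1, NOB1, NOP16, PPAN and NPM1. Leaving out any 1 of the 6 libraries left 0 of the 51 called without a block, with medians between -0.64 and -0.52.

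At 72 h the estimates in MINO lay nearer 0. The median was -0.27 (all genes -0.03), 46 of the 51 were negative, and 1 gene, FBL, fell past the threshold, a share of the 51 near the 2.05% of all genes called lower. Every treated library lay below every DMSO library in 12 of the 51, against 10% of all genes. A block for the replicate number gave 8 lower calls (4.26% of all genes), namely NOP14, FBL, POLR1B, WDR74, NAT10, LYAR, RRP1B and NPM1, and with the number within each time 21 were lower (9.8% of all genes) and UBTF was higher. Without DMSO replicate 2, the library rich in ribosomal protein reads, 8 were called (4.16% of all genes lower). Without replicate 2 of both groups 14 were (6.6% of all genes lower), an alternative chosen after seeing the data. Without a GS716054 library, 2 were called whichever of the 3 was left out (2.45% of all genes lower without replicate 2). The difference between the effect at 72 h and that at 24 h was positive in 44 of the 51, with a median of 0.26, but it passed the adjusted threshold in none of them (0.0133% of all genes) and an unadjusted p under 0.05 in 1. Across the 51 genes the effects at the 2 times, which share no library, correlated with a Pearson r of 0.34 and a Spearman rho of 0.308, and across all 15028 genes with 0.576 and 0.543. Genes within a library share its depth and composition, so these figures are descriptions.

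**Figure D1:**
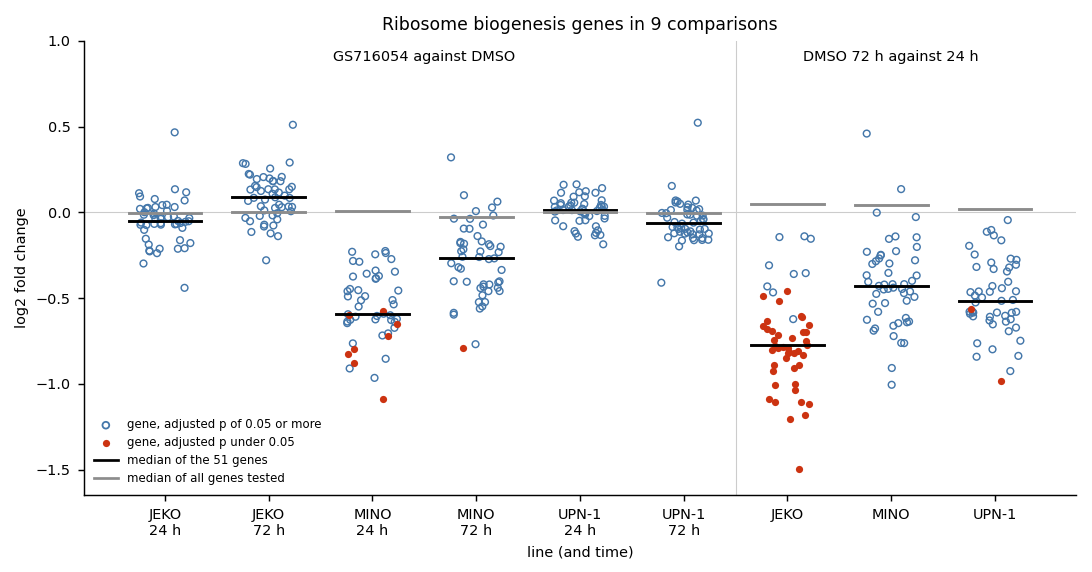
Each point is 1 of the 51 genes, plotted by its log2 fold change in 9 comparisons (6 of GS716054 against DMSO, 3 of DMSO at 72 h against 24 h), filled where the edgeR adjusted p was under 0.05, with black bars for the median of the 51 genes and grey bars for the median of all genes tested. All 51 points of MINO at 24 h and of the JEKO and UPN-1 culture-time comparisons lie below 0, while the inhibitor comparisons of JEKO and UPN-1 scatter around 0.

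The RNA polymerase I genes had the medians nearest 0 of the 6 roles in treated MINO cells, with a value of -0.36 at 24 h and -0.14 at 72 h. POLR1B, which encodes a catalytic core subunit, had 99.5, 79.6 and 92.7 CPM in the MINO DMSO libraries at 24 h and 60.4, 53.9 and 53.7 with GS716054. The groups did not overlap, and the gene fell by 0.72 on the log2 scale (SE 0.170, edgeR adjusted p 0.0447). At 72 h the libraries read 70.1, 49.6 and 69.7 in DMSO and 50.1, 38.6 and 53.3 with the inhibitor, which overlap, and the log2 fold change of -0.43 had an adjusted p of 0.153 (0.0106 with the block within each time). POLR1A, the largest subunit, had -0.55 and -0.18, and POLR1C, a subunit shared with RNA polymerase III, had -0.36 and -0.14. None of these 4 values passed without a block, and POLR1A was called lower at 24 h with the block within each time.

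UBTF and RRN3, the factors that bring the polymerase to the ribosomal DNA promoter, did not pass without a block and had the highest log2 fold changes of all 51 genes at 72 h. UBTF, the architectural factor of the active ribosomal DNA repeat, had 261.8, 246.2 and 261.7 CPM in DMSO and 242.2, 220.9 and 206.4 with GS716054 at 24 h in MINO. At 72 h it had 232.9, 154.9 and 244.2 in DMSO and 259.8, 215.4 and 322.8 with the inhibitor. DMSO replicate 2 was the low value, and the log2 fold change of 0.32 (SE 0.186) had an edgeR adjusted p of 0.338, or 0.0488 with the block within each time. Without that library it was 0.11, without GS716054 replicate 3 it was 0.14, and without GS716054 replicate 2 it was 0.45. RRN3, which makes the polymerase competent to initiate, had 67.3, 74.98 and 75.5 CPM in DMSO and 60.9, 62.2 and 66.9 with GS716054 at 24 h. The 72 h libraries overlapped, with 61.4, 62.0 and 62.6 in DMSO and 60.8, 65.8 and 74.7 with the inhibitor, a log2 fold change of 0.10 with an adjusted p of 0.648.

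Among the box C/D snoRNP proteins, which guide 2'-O-methylation of ribosomal RNA, FBL was the gene called at 72 h without a block. FBL, the methyltransferase itself (ENSG00000105202, chromosome 19, 39834458 to 39846379, GRCh38), had 239.9, 342.3 and 259.8 CPM in MINO DMSO cells at 72 h and 151.2, 157.9 and 181.6 with GS716054. No treated library reached a DMSO library, and FBL fell by 0.79 (SE 0.144, edgeR adjusted p 0.0075). It was called in all 6 fits that left out 1 library (adjusted p 0.00664 to 0.0311), and not in the fit of the 6 libraries compared alone (adjusted p 0.105, the highest over all alternatives). At 24 h it had 292.6, 269.2 and 296.2 in DMSO and 230.3, 198.7 and 209.0 with the inhibitor, again without overlap, at -0.46 with an adjusted p of 0.118 (0.0221 with the block within each time). NOP56 and NOP58, the paired scaffold proteins of the particle, had -0.60 and -0.62 at 24 h and -0.23 and -0.42 at 72 h, and neither passed without a block. NOP58 was called lower at both times with the block within each time (adjusted p 0.00577 and 0.0222), and NOP56 at 24 h.

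The box H/ACA proteins, which pseudouridylate ribosomal RNA, had medians of -0.55 at 24 h and -0.19 at 72 h and no call without a block. With the block within each time DKC1, GAR1 and NHP2 were called lower at 24 h and none at 72 h. DKC1, the pseudouridine synthase that also stabilises telomerase RNA, had 366.7, 387.5 and 385.9 CPM in MINO DMSO cells at 24 h and 249.7, 227.8 and 269.7 with GS716054. Those groups were well apart, yet the log2 fold change of -0.64 (SE 0.208) had an adjusted p of 0.1299 by edgeR. At 72 h the values were 302.1, 230.7 and 329.4 in DMSO and 288.0, 166.7 and 302.7 with the inhibitor, which overlap, at -0.20 with an adjusted p of 0.618. GAR1, another core protein of the particle, went from -0.61 at 24 h to 0.01 at 72 h, while NHP2 had -0.49 and -0.23 and NOP10 -0.24 and -0.18.

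In the 40S assembly group, HEATR1 and TSR1 fell at 24 h and the median over the 18 genes was -0.56. HEATR1, a scaffold of the first complex to join the nascent transcript, had 161.3, 141.8 and 141.8 CPM in DMSO and 108.0, 96.8 and 99.2 with GS716054, a difference of -0.58 in log2 (SE 0.127, edgeR adjusted p 0.0350). TSR1, a GTPase-like factor of late 40S particles, had 143.8, 135.2 and 141.6 in DMSO and 95.5, 87.8 and 99.6 with the inhibitor, at -0.60 (SE 0.134, adjusted p 0.0367). Neither gene's groups overlapped. The most negative estimate of the group was that of RRP9, a U3 snoRNP protein, at -0.91. Its adjusted p was 0.0724 without a block, and it was called with the block within each time. The least negative was LTV1, an export and maturation factor, at -0.24. At 72 h the group's median was -0.28 and no gene passed without a block. The estimates then ran from -0.60 for NOP14, a factor of the early 40S precursor, to 0.03 for PNO1, the partner of the endonuclease NOB1.

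In the 60S assembly group, WDR74 and RRP1B fell at 24 h, and the 14 genes had medians of -0.55 at 24 h and -0.17 at 72 h. WDR74, a factor that acts with the exosome-linked helicase on early 60S particles, had 58.9, 70.9 and 73.8 CPM in MINO DMSO cells and 44.9, 40.2 and 47.0 with GS716054 at 24 h. That was a difference of -0.65 in log2 (SE 0.142, edgeR adjusted p 0.0333) without overlap. RRP1B, a nucleolar protein of the 60S pathway, had 239.9, 223.1 and 249.3 in DMSO and 135.1, 120.8 and 139.7 with the inhibitor, at -0.88 (SE 0.197, adjusted p 0.0373). PES1, BOP1 and WDR12, which form 1 complex needed to process the precursor of 28S and 5.8S RNA, had -0.46, -0.51 and -0.65 at 24 h. The smallest edgeR adjusted p of the 3 was 0.0728 without a block, and all 3 were called lower with the block within each time. At 72 h they had -0.09, -0.33 and -0.46, with BOP1 and WDR12 called lower under that block. The largest value of the group at 72 h was that of RRS1, a 5S particle factor, at 0.06.

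The abundant nucleolar proteins had the lowest median of the 6 groups, -0.82 at 24 h and -0.52 at 72 h, and NCL, MYBBP1A and GNL3 fell at 24 h. NCL, or nucleolin, which binds nascent ribosomal RNA, had 1319, 1167 and 1327 CPM in MINO DMSO cells at 24 h and 800.7, 648.7 and 747.4 with GS716054. The difference was -0.82 in log2 (SE 0.184, edgeR adjusted p 0.0371), with all treated libraries below all DMSO libraries. By 72 h NCL had 1003, 811.7 and 1027 in DMSO and 793.4, 569.2 and 910.4 with the inhibitor, which overlap, at -0.34 (adjusted p 0.307).

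MYBBP1A, a nucleolar protein that binds MYB and p53, had the largest fall of the 51. Its libraries held 183.2, 207.8 and 199.5 CPM in DMSO and 102.7, 84.6 and 96.0 with GS716054 at 24 h, a difference of -1.09 in log2 (SE 0.241, edgeR adjusted p 0.0354). GNL3, or nucleostemin, a GTPase tied to proliferation, had 103.7, 137.5 and 103.4 in DMSO and 61.5, 65.7 and 75.7 with the inhibitor, at -0.79 (SE 0.165, adjusted p 0.0294). Both genes separated the groups completely at 24 h. At 72 h their log2 fold changes were -0.56 and -0.48 with adjusted p of 0.186 and 0.104, or 0.0037 and 0.0132 with the block within each time.

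LYAR, NPM1 and NAT10, an acetyltransferase of ribosomal RNA, had adjusted p just above the threshold at 72 h (NAT10 0.0567). LYAR, a zinc finger protein of the nucleolus, had 65.4, 57.9 and 63.6 CPM in DMSO and 45.6, 21.4 and 43.8 with GS716054, at -0.77 (SE 0.221, edgeR adjusted p 0.0616, and 0.00269 with the block within each time). Its groups did not overlap, and treated replicate 2 was the low value. Without it LYAR was at -0.49 and past the threshold (adjusted p 0.04). At 24 h LYAR had 79.1, 82.8 and 79.6 in DMSO and 47.1, 40.6 and 48.6 with the inhibitor, at -0.85 (adjusted p 0.0628, and called with the block within each time). NPM1, or nucleophosmin, a histone and ribosome chaperone, had 1226, 1732 and 1202 CPM in DMSO and 909.6, 856.5 and 1028 with the inhibitor at 72 h, at -0.59 (SE 0.167, adjusted p 0.0593, and 0.0244 with the block within each time). DMSO replicate 2 was the high value there, and without it NPM1 was at -0.43 (adjusted p 0.0572). At 24 h NPM1 had 1494, 1585 and 1551 in DMSO and 1122, 1121 and 1369 with the inhibitor, at -0.39 (adjusted p 0.244).

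**Figure D2:**
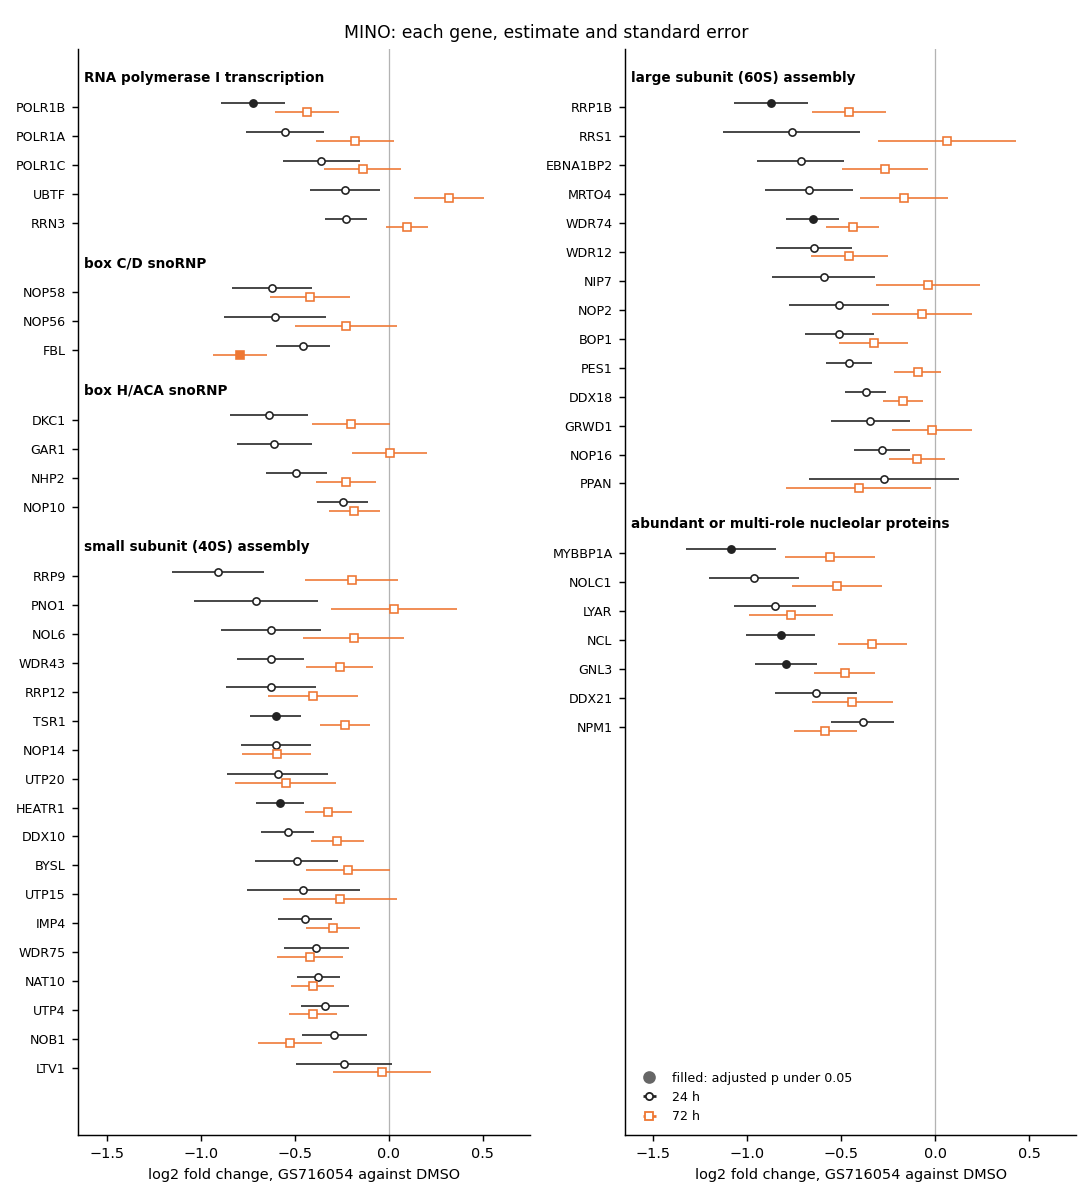
Log2 fold change of GS716054 against DMSO in MINO for each of the 51 genes by role, with its standard error, at 24 h (circles) and 72 h (squares), filled where the edgeR adjusted p was under 0.05. The 8 filled circles and the filled square of FBL are the calls without a block, and most squares lie closer to 0 than the circles above them.

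**Figure D3:**
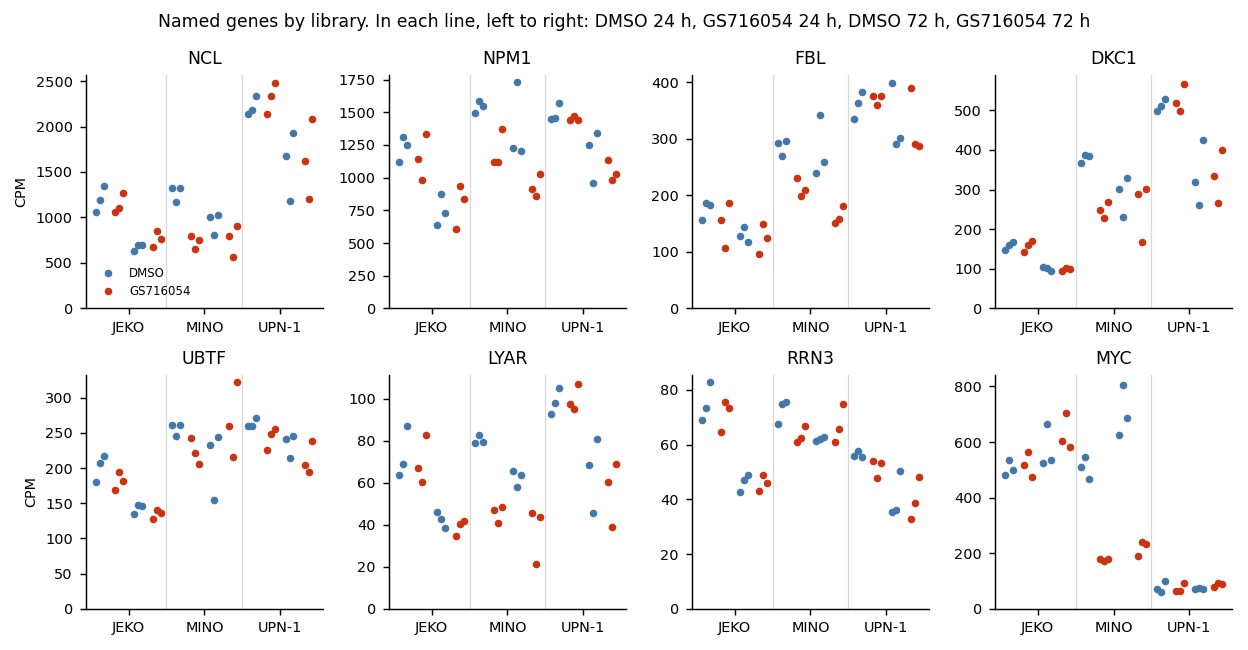
CPM in each of the 36 libraries for NCL, NPM1, FBL, DKC1, UBTF, LYAR, RRN3 and MYC, each panel on its own scale from 0. Treated MINO libraries of MYC lie between 171.4 and 239.3 CPM, below every MINO DMSO library, while the treated and DMSO libraries of JEKO and of UPN-1 lie side by side.

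In JEKO and UPN-1 the inhibitor left no detectable change in these genes. None of the 51 passed in JEKO at 24 h (0.018% of all genes called in either direction) or at 72 h (0.3%), nor in UPN-1 at 24 h (0.0262%) or at 72 h (0.334%). The medians of the 51 log2 fold changes were -0.05 and 0.09 in JEKO and 0.01 and -0.06 in UPN-1. An unadjusted p under 0.05 was reached by 1 gene in JEKO at 72 h and by none in the other 3 comparisons. DESeq2 called 0 of the 51 in all 4 comparisons. NCL had 1060, 1188 and 1341 CPM in JEKO DMSO cells at 24 h and 1057, 1106 and 1273 with GS716054, and 2133, 2186 and 2335 against 2139, 2331 and 2476 in UPN-1. The groups overlapped in each line. Same-numbered libraries of UPN-1 at 72 h deviated together, and with the block within each time RRP9 was called lower there (-0.41, SE 0.086, edgeR adjusted p 0.005, 1 of the 51 against 3.29% of all genes).

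Whether the effect in MINO differed from the other lines was tested as the MINO effect minus the mean effect of JEKO and UPN-1, in a model of all 36 libraries. At 24 h the difference was negative in 50 of the 51, with a median of -0.55, and it passed for POLR1B (-0.85, SE 0.190, edgeR adjusted p 0.0255) and GNL3 (-0.80, SE 0.172, adjusted p 0.0202), against 0.428% of all genes called lower. With the block within each time 37 passed (4.34% of all genes), and leaving out 1 of the 6 MINO libraries of 24 h without a block left 0 or 1. The median of all genes was 0.02, and with libraries scaled by total gene reads alone it moved to -0.09 and that of the 51 to -0.66. For NCL the difference was -0.80 with an adjusted p of 0.0879, and for MYBBP1A it was -0.998 with 0.152. At 72 h the difference was negative in 44 of the 51, with a median of -0.29, and none passed (0.84% of all genes). An unadjusted p under 0.05 was reached by 16, a count given here without the share of all genes. FBL, the gene called in MINO at 72 h, was at -0.72 with an adjusted p of 0.0711. With the block within each time 20 were lower (5.72% of all genes) and UBTF was higher, at 0.46 with an adjusted p of 0.00518.

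MYC (ENSG00000136997) itself fell in treated MINO cells. Its libraries held 509.6, 545.9 and 468.3 CPM in DMSO at 24 h and 179.1, 171.4 and 179.8 with GS716054, and 625.1, 804.4 and 687.1 against 189.1, 239.3 and 232.2 at 72 h. The groups did not overlap at either time, and MYC fell by 1.55 in log2 (SE 0.138, edgeR adjusted p 0.000724) and, at the later time, by 1.69 (SE 0.138, adjusted p 7.37e-05). Both exceeded every member's change in size. The difference from the mean effect of the other lines was -1.51 at 24 h (SE 0.196, adjusted p 8.93e-05). It was -1.88 at 72 h (SE 0.197, adjusted p 9.13e-07). In JEKO, MYC lay between 475.6 and 704.9 CPM in all 12 libraries, and in UPN-1 between 58.8 and 101.5 CPM, with log2 fold changes of 0.02, 0.14, -0.07 and 0.28 that did not pass. In UPN-1 at 72 h MYC was called higher with the block within each time (0.27, SE 0.072, adjusted p 0.023). MYCN and MYCL, its paralogs, stayed at or below 5.90 and 12.9 CPM in every library.

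The summed level of the 51 genes did not follow the order of the MYC levels across groups. At 24 h in MINO the sum was 9305, 9427 and 9687 CPM in DMSO and 6558, 6049 and 6911 with the inhibitor, and MYC was lower in the same treated libraries. At 72 h the sums were 7486, 6942 and 7725 in DMSO and 6137, 4513 and 6849 with the inhibitor. The treated sums were thus below the DMSO sums of the same time in every library. UPN-1, with the lowest MYC of the 3 lines, had the highest sums, 10947, 11089 and 11738 CPM in DMSO at 24 h. Treated MINO libraries thus had more MYC than any UPN-1 library and a lower sum than any UPN-1 library of 24 h. The sum gives most weight to abundant genes such as NCL. In DMSO at 24 h the median log2 CPM of the 51 genes was 6.88, 6.998 and 6.971 in UPN-1. It was 6.821, 6.998 and 7.202 in JEKO, so by the median these lines overlapped. In JEKO the sum was 8633, 9609 and 10444 CPM in DMSO at 24 h and 5545, 5739 and 5591 at 72 h, while MYC was 479.8, 536.5 and 499.7 and then 522.7, 664.4 and 534.1. The log2 change of MYC over that time was 0.18 in JEKO, 0.47 in MINO (adjusted p 0.116) and -0.08 in UPN-1, and none passed.

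**Figure D4:**
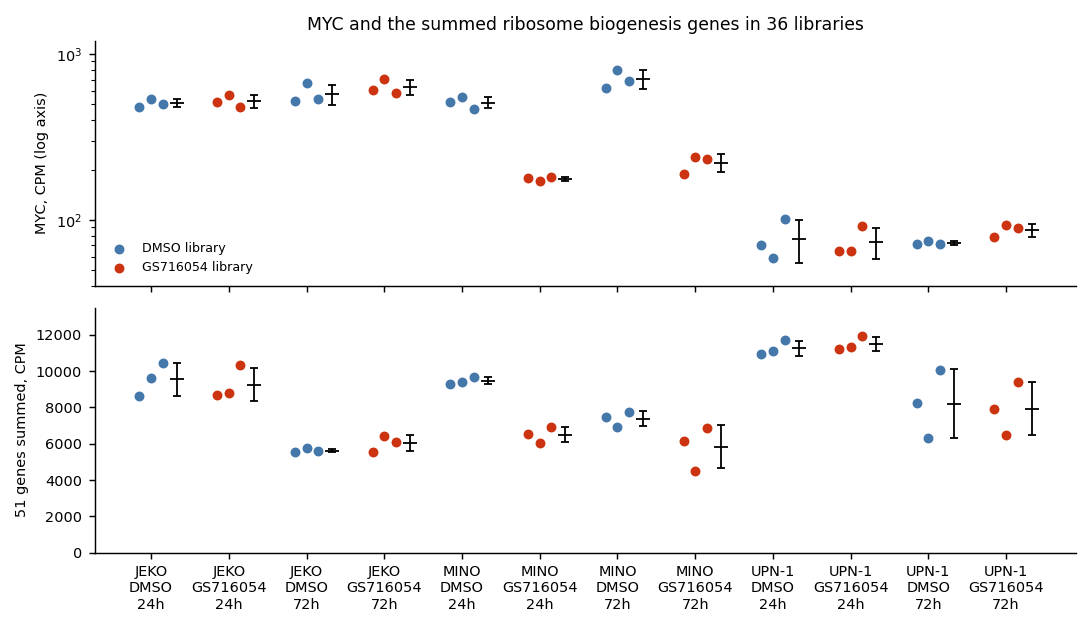
CPM of MYC (top, log axis) and summed CPM of the 51 genes (bottom) in each of the 36 libraries, with the mean and SD of each group of 3. The treated MINO groups are low in both panels, the JEKO groups at 72 h are low only in the bottom panel, and the UPN-1 groups are low in the top panel and highest in the bottom panel at 24 h.

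Time in culture was compared within DMSO cells, and most of the 51 genes were called lower at 72 h in JEKO, 2 in UPN-1 and none in MINO. In JEKO DMSO cells all 51 genes were lower at 72 h than at 24 h, with a median log2 fold change of -0.78 (all genes 0.05), and 42 of them fell past the threshold, against 14.6% of all genes called lower. UTP20, a scaffold of the 40S precursor, had 55.2, 56.7 and 81.6 CPM at 24 h and 18.7, 26.1 and 23.7 at 72 h, which was the largest fall, by 1.498 (SE 0.203, edgeR adjusted p 0.000692). PNO1 had 74.6, 80.0 and 94.8 CPM and then 41.2, 29.2 and 39.4, a fall by 1.18 (SE 0.159, adjusted p 0.000692). Neither gene's groups overlapped. By role, 4 of 5 RNA polymerase I genes fell, as did 2 of 3 box C/D, 3 of 4 box H/ACA, 16 of 18 40S, 10 of 14 60S and all 7 abundant nucleolar genes. The 9 that did not pass were FBL, NOP10, POLR1C, LTV1, NOB1, NOP16, PPAN, RRS1 and WDR74, with values from -0.62 (RRS1) to -0.14 (PPAN). Leaving out 1 library at a time left 32 to 43 called. Scaled by total gene reads alone, the median of all genes moved to 0.17 and that of the 51 to -0.65, with 38 called. The shares of all genes called in these alternative fits are not given here.

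In UPN-1 the same comparison was negative for all 51 genes, with a median of -0.52 (all genes 0.02), but the 72 h libraries were far apart. The summed level was 8234, 6306 and 10086 CPM in the 72 h DMSO replicates, and 2 of the 51 fell past the threshold, against 0.118% of all genes. PNO1 had 92.9, 84.6 and 84.5 CPM at 24 h and 37.4, 29.8 and 64.1 at 72 h, a fall by 0.98 (SE 0.216, edgeR adjusted p 0.0430). NOP58 had 197.8, 188.1 and 183.5 and then 119.7, 113.1 and 149.1, a fall by 0.57 (SE 0.133, adjusted p 0.0475). Both kept their groups apart. Without the 72 h DMSO replicate 3, whose sum was close to those of 24 h, 40 of the 51 were called (share of all genes not given here). Without any other library 0 were. Ribosomal protein genes took 10.6% of the gene reads of that replicate, against 14.2% and 13.4% in the other 72 h DMSO replicates, and their part in the result was not tested. In MINO DMSO cells 49 of the 51 were negative, with a median of -0.43 (all genes 0.04). None passed there (0.00665% of all genes called lower), and the 2 positive estimates were those of NOB1 and PPAN. An unadjusted p under 0.05 was reached by 26 in MINO, a count given here without the share of all genes. Over the 3 lines, 49 of the 51 were negative in all, against 31.3% of the 13791 genes tested in every line.

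The order of the 51 genes by culture time in JEKO was set beside their order under the inhibitor in MINO. Across the 51 genes, the JEKO culture-time values and the MINO 24 h inhibitor values, which share no library, correlated with a Pearson r of 0.375 and a Spearman rho of 0.343, against 0.118 and 0.211 over 14372 genes. MYBBP1A had -1.09 under the inhibitor in MINO and -0.74 over time in JEKO, whereas UTP20 had -0.59 and -1.498. WDR74 and GNL3, both called in treated MINO cells, had -0.14 (not called) and -0.46 (adjusted p 0.0172) over time in JEKO. UPN-1 culture time and MINO inhibitor values had an r and a rho of 0.306 over the 51, and 0.201 and 0.255 over all genes tested in both. The culture-time values of JEKO and MINO had an r of 0.701 and a rho of 0.702 over the 51 genes and 0.624 and 0.654 over all. Those of JEKO and UPN-1 had 0.443 and 0.412 over the 51, against 0.644 and 0.676 over all.

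**Figure D5:**
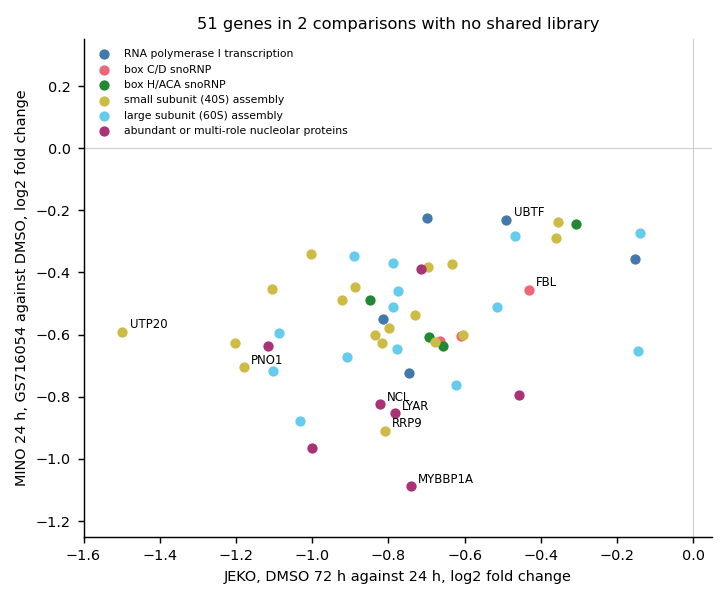
Each point is 1 of the 51 genes, coloured by role, plotted by its log2 fold change in JEKO DMSO cells at 72 h against 24 h (horizontal) and in MINO under GS716054 against DMSO at 24 h (vertical). All points lie in the lower left quadrant, UTP20 is farthest left and MYBBP1A lowest.

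Other genes of the pathway were read from lists written by gene name. Of 81 further assembly factors tested in MINO, 75 were negative at 24 h with a median of -0.37 and 4 fell (WDR3, ESF1, CEBPZ and UTP14A), against 0.952% of all genes. At 72 h 61 were negative with a median of -0.14 and 4 fell (NLE1, RSL24D1, URB1 and RPF2), against 2.05% of all genes. With the block within each time 38 were lower at 24 h (7.36% of all genes), and 17 were lower and 2 higher at 72 h (9.8% of all genes lower). Without DMSO replicate 2, 9 were lower at 72 h (4.16% of all genes), with a median of -0.26. Without GS716054 replicate 2, 2 were (2.45% of all genes), with a median of -0.05. NLE1, which acts in late 60S remodelling, had -0.88 (SE 0.152, edgeR adjusted p 0.00618). RSL24D1, the placeholder for a ribosomal protein on the 60S precursor, had -0.73 (adjusted p 0.0327), and URB1, a nucleolar 60S factor, had -0.58 (adjusted p 0.0358). In JEKO DMSO cells over time, 63 of 80 of these factors fell (14.6% of all genes) and 1 rose.

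Among 32 other subunits and factors of RNA polymerases I and III in MINO, 2 fell at 24 h (0.952% of all genes) and 3 at 72 h (2.05%). With the block within each time 10 were lower at 24 h (7.36% of all genes), and 8 were lower and 2 higher at 72 h (9.8% of all genes lower). POLR1E, a polymerase I subunit, had -0.73 (SE 0.146, edgeR adjusted p 0.0124) at 72 h, TAF1D, part of the polymerase I selectivity factor, had -0.71 (adjusted p 0.0227), and POLR3G, the polymerase III subunit typical of proliferating and stem cells, had -1.03 (adjusted p 0.0244). At 24 h the called genes were POLR3G at -1.30 and POLR1G, a further polymerase I subunit, at -1.13. No gene among 13 snoRNP assembly factors passed at either time, and of 14 exosome genes EXOSC5 alone did, at 24 h (-0.63), without a block. With the block within each time 5 snoRNP factors were lower at 24 h and 3 at 72 h, as were 3 and 2 exosome genes, with 1 exosome gene higher at 72 h. The shares of all genes called lower with that block were 7.36% at 24 h and 9.8% at 72 h. At 24 h the medians of these 3 lists were -0.23, -0.31 and -0.31. Their 72 h medians were -0.12, -0.13 and -0.13.

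Genes of the structural proteins of the ribosome had mostly positive values in MINO at 24 h. Of 79 cytosolic ribosomal protein genes, 7 were negative at 24 h with a median of 0.16, and none passed without a block. With the block within each time 1 was called lower at 24 h (7.36% of all genes) and 4 at 72 h (9.8%). Without a block all 79 were negative at 72 h with a median of -0.28. There RPS21, a 40S protein, was the gene called (-0.87, SE 0.215, edgeR adjusted p 0.0341). MINO DMSO 72 h replicate 2, the library with 16.2% of its gene reads in these genes, is in that comparison, against 11.7% and 10.7% in the other DMSO libraries and 10.7% to 11.03% in the treated ones. Without that library 41 of the 79 were negative, with a median of -0.02, so the shared sign at 72 h rests on it. RPS21 was then at -0.68 (adjusted p 0.0448), and it was not called without GS716054 replicate 2 (adjusted p 0.0651).

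The host genes of small nucleolar RNAs, long RNAs whose introns carry the guide RNAs of the snoRNPs, had a more negative median at 72 h than at 24 h in treated MINO cells, but the difference between the times passed for none of the 22. At 24 h 14 of 22 were negative with a median of -0.11 and 2 fell (SNHG16 and SNHG17), against 0.952% of all genes. With the block within each time 7 were lower at 24 h (7.36% of all genes). At 72 h all 22 were negative with a median of -0.81 and 6 fell (2.05% of all genes), with 17 called under the block within each time (9.8%). DMSO replicate 2 was the high library in several of them. GAS5, for one, had 193.2, 391.6 and 151.2 CPM in DMSO and 121.3, 170.6 and 118.6 with GS716054, at -0.85 (adjusted p 0.119). Without that library all 22 were still negative, with a median of -0.61 and 11 called (4.16% of all genes lower). SNHG1 had 73.5, 83.9 and 68.8 CPM in DMSO and 32.3, 20.4 and 23.2 with GS716054 at 72 h, without overlap, at -1.59 (SE 0.248, edgeR adjusted p 0.00369). SNHG19 had -1.16 (adjusted p 0.00537) and SNHG29 -0.99 (adjusted p 0.0213), and the latter was at -0.67 without DMSO replicate 2 (adjusted p 0.0167). In JEKO DMSO cells over time these host genes went the other way from the 51, with a median of 0.84, 11 called higher (17.1% of all genes) and 1 lower. The ribosomal protein share of the JEKO DMSO libraries was 7.96% to 9.37% at 24 h and 9.79% to 14.9% at 72 h, and its part in that result was not tested.

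In the MYC, MAX and MXD network the other call in MINO without a block was MXD4, which encodes a repressor that competes with MYC for MAX. MXD4 had 32.5, 39.97 and 39.4 CPM in DMSO and 69.9, 99.5 and 76.0 with GS716054 at 24 h, without overlap, and rose by 1.10 (SE 0.169, edgeR adjusted p 0.00862). At 72 h it had 47.1, 43.9 and 54.1 in DMSO and 104.4, 149.2 and 129.5 with the inhibitor, and rose by 1.38 (SE 0.169, adjusted p 0.000943). The remaining 10 genes of this list passed at neither time in MINO without a block, and 1 of them was called lower at each time with the block within each time. In UPN-1 at 72 h 1 gene of the list was called higher without a block (0.275% of all genes). None was called in UPN-1 at 24 h or in JEKO. With the block within each time, 1 was higher in JEKO at each time and 1 in UPN-1 at 24 h. In UPN-1 at 72 h 3 were then higher and 1 lower (3.29% of all genes lower). The shares of all genes called higher with that block are not given here.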

How the data were processed

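RNA sequencing counts of 36 libraries from JEKO, MINO and UPN-1 were analysed. The authors deposited 1 table of raw counts per library, whole numbers for 58302 Ensembl gene IDs with 5 summary lines that were left out of all tests. Per the submitters' processing notes, HISAT2 2.2.1, HTSeq 0.13.5 and build GRCh38 were used. The annotation release and the use of strand in counting are not given in the sources used here. GENCODE v44 named 57532 of the 58302 IDs. The members, roles and gene lists were chosen with earlier results of these data known.

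In R 4.3.3, edgeR 4.0.16 fitted 1 quasi-likelihood model per line to its 12 libraries (16690, 15028 and 15248 genes in JEKO, MINO and UPN-1) and a further model to all 36 (17980 genes). Libraries were TMM-scaled, genes kept by filterByExpr (minimum count 10, minimum total 15), and p-values adjusted by Benjamini-Hochberg over all genes, with a call under 0.05. SE is the absolute log2 fold change over the square root of F. CPM uses TMM sizes over all 36 libraries. The script was tested on simulated data. DESeq2 1.42.0 was an alternative, as were other scalings and filters, fewer or more libraries, leaving out each library, and the replicate number as a block.

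Same-numbered DMSO and GS716054 libraries correlated in their deviations from the group means within a time (MINO 0.102, 0.207 and 0.121 at 24 h and 0.369, 0.483 and 0.221 at 72 h, JEKO 0.562, 0.513 and 0.277 and UPN-1 0.36, 0.458 and 0.478 at 72 h). At 24 h JEKO had 0.11, 0.0463 and 0.186 and UPN-1 0.119, 0.0688 and 0.169, so the correlation at 24 h was weak in all lines, MINO included. MINO DMSO libraries of the same number at both times had -0.0325, -0.07 and 0.029. The pairing comes from these data and the shared numbers, so the block within each time was added after seeing the data, as were the values of the further lists without single libraries.

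Genes given in full were NCL, NPM1, FBL, DKC1 and UBTF, the members called in MINO at 72 h (at most 2 per role), any called in JEKO or UPN-1, the 2 members with the highest and the 2 with the lowest log2 fold change in MINO at 72 h, up to 3 called genes per further list, and MYC. The rule as written names every member called in JEKO or UPN-1. It was applied to the inhibitor comparisons alone after the culture-time calls in JEKO were known, and those calls are given as counts and ranges. Other genes were named after their values were seen. Promoter windows came from RefSeq (GRCh38.p14), where RRS1, NOLC1, RRP12, BOP1, RRP1B, DDX18 and NOP58 were not matched. No molecular identifiers are mentioned in the labels, so reads may repeat a molecule.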

Additional observations from a re-analysis of the deposited data

Results flagged for a closer look

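The effect of GS716054 differed between MINO and the mean of the other lines for 2 of the 51 genes and for MYC, by edgeR's test of the difference itself in all 36 libraries. At 24 h POLR1B was at -0.85 (SE 0.190, adjusted p 0.0255), GNL3 at -0.80 (SE 0.172, adjusted p 0.0202) and MYC at -1.51 (SE 0.196, adjusted p 8.93e-05). At 72 h MYC was at -1.88 (SE 0.197, adjusted p 9.13e-07). The MINO effects of POLR1B and GNL3 at 24 h were called in 0 of the fits that left out a library, and that of MYC in all 6.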

How the results depend on the processing

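For the 51 genes in MINO at 24 h, the 8 calls became 3 with scaling by total gene reads alone, 26 without a low-count filter, 20 with DESeq2, 44 with only the 6 libraries compared, 14 in the fit of all 36 libraries, and 0 in each fit without 1 library. With the replicate block they were 24, and 41 with the block within each time. The single call in MINO at 72 h became 2, 4, 7, 0 and 5 under the same first 5 settings, 3 with a minimum count of 50, 1 to 8 without 1 library, 14 without replicate 2 of both groups, 8 with the replicate block and 22 with the block within each time. Over culture time in MINO, 0 calls became 20 with the replicate block, 14 without a filter and 8 with DESeq2. In UPN-1, 2 calls became 36 with the replicate block, 1 by total reads, 32 without a filter, 13 with DESeq2, 0 with only the 6 libraries, and 0 to 40 without 1 library. The replicate numbers did not pair libraries across times. In UPN-1 at 72 h under the inhibitor 0 calls became 1 with the block within each time, and the median of -0.06 ran from -0.21 to 0.17 without 1 library. For MINO against the other lines, 2 calls at 24 h became 13 and 37 with the 2 blocks, 6 without a filter and 0 to 2 without 1 library. At 72 h 0 became 5 and 21 with the 2 blocks, 1 by total reads, 1 without a filter, 1 with a minimum count of 50 and 0 to 1 without 1 library. The cause of these shifts was not tested, and the counts of this section are given without the share of all genes in each fit. The block changed no call of the 51 in JEKO under the inhibitor. Without 1 library, DKC1 in MINO at 72 h ran from -0.37 to 0.0225, positive without GS716054 replicate 2, and RRN3 from -0.00188, without GS716054 replicate 3, to 0.155.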
